A study of Homo sapiens with 12 samples.

Results

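The messengers of 10 chaperones and folding enzymes of the endoplasmic reticulum (ER) were followed in RNA pulled down through eIF4E, the cap-binding protein that recruits messengers to the ribosome. The genes were HSPA5, HSP90B1, CALR, CANX, PDIA3, PDIA4, PDIA6, P4HB, ERP29 and PPIB. All probe sets whose only annotated gene was one of these were taken, which gave 21 of the 22277 probe sets on the array, and 10 of the 11963 genes that had a probe set of their own. HSPA5, PDIA3 and ERP29 had 1 probe set each, PDIA6 had 4, CALR and CANX had 3 each, and the remaining 4 genes had 2 each. The cells were MDA-MB-231, an established human triple-negative breast cancer line, and the 4 groups held 3 arrays each. They were eIF4E precipitates of irradiated cells, eIF4E precipitates of untreated cells, IgG precipitates of irradiated cells and IgG precipitates of untreated cells. Irradiated cells had received 2 Gy of X-rays at 2.3 Gy/min and were collected 6 h later, and the antibody to eIF4E came with a commercial immunoprecipitation kit. The series speaks of 3 biological replicates, but nothing names separate cultures, so p-values measure the spread between these arrays. All 12 arrays hold precipitated RNA, so a messenger's amount in the cell and its share bound to eIF4E cannot be told apart.

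Proteins that enter the secretory pathway fold in the ER. HSPA5 (BiP), an Hsp70, and HSP90B1 (GRP94), an Hsp90, hold unfolded chains, while the lectins CALR (calreticulin) and CANX (calnexin) hold glycoproteins and pass them to the disulfide isomerase PDIA3. When unfolded protein builds up, the unfolded protein response raises transcription of many of these genes through the factors ATF6 and XBP1, which act with the CCAAT-binding factor NF-Y at the ER stress response element of their promoters. The proteins are abundant in cells that secrete or display many proteins.

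That element is shown because it is a well known control sequence of several of these genes. It was not used to choose them, but matches among them were therefore foreseeable and are not an independent result. The letters searched were CCAAT, then 9 bases of any kind, then CCACG, on both strands, in RefSeq promoter windows of GRCh38.p14 that reach from 250 bases before to 50 bases after an annotated start. Of all 35116 windows, 27 (0.0769%) held a match, which were windows of 25 of 27305 genes (0.0916%). Windows were at hand for 9 members, all but PDIA3, and 5 of these 9 held a match. A match is a description of letters and not a bound site. Each run below reads 5′ to 3′ on the strand of the gene, with the element in capitals and 5 bases on either side, and where the element lies on the opposite strand the capitals read as its reverse complement.
HSPA5, chr9:125241386-125241414, minus strand: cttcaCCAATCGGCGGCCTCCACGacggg
HSP90B1, chr12:103930211-103930239, plus strand: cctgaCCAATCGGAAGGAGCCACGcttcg
HSP90B1, chr12:103930316-103930344, plus strand, element reversed: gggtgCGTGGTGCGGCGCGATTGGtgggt
CALR, chr19:12938379-12938407, plus strand, element reversed: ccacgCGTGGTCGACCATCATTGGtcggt
CANX, chr5:179698773-179698801, plus strand: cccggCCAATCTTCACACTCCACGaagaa
PDIA6, chr2:10812848-10812876, minus strand: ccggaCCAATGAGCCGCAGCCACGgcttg

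In HSPA5 the element began 66 bases before the start and ended 48 bases before it. HSP90B1 held 2 elements, which began 194 and 89 bases before its start. The match was absent from the windows of PDIA4, P4HB, ERP29 and PPIB, present in 3 of the 4 windows of CANX and in 1 of the 2 windows of PDIA6. The whole 250 bases before the start of HSPA5 are given because its single probe set is the simplest of the large differences described next. They held 4 copies of CCAAT on either strand and 1 complete element, again in capitals.
HSPA5, chr9:125241344-125241593, minus strand: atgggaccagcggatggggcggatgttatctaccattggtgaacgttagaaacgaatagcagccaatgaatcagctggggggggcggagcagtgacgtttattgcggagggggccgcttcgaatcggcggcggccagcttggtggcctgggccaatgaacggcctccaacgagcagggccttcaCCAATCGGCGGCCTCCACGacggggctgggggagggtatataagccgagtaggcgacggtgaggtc

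Signals are linear and scaled within each array, so higher and lower are relative to the other genes of an array. All 21 member probe sets passed the filter on dim probe sets, with 11438 probe sets tested in all. The 9 markers of the line were all above the filter, against 3 of 8 luminal markers that the line should lack (GATA3, ERBB3 and EPCAM). Of 20 measured markers of other cell types, 4 were above it (CYP3A4, HBB, SNAP25 and MBP), and the median signal of that list was 12.5 to 26.5 on eIF4E arrays and 11.9 to 30.8 on IgG arrays. The mean signals of MBP (2055) and GATA3 (923) were above that of EGFR (651), the dimmest marker of the line. The 3'/5' signal ratio of actin, which rises with degraded or incompletely copied RNA, was 1.33 to 1.53 on the 6 eIF4E arrays and 2.96 to 5.38 on the 6 IgG arrays. The Alu repeat probe set gave 13482 to 18476 with eIF4E and 36876 to 53246 with IgG (exact permutation test, two-sided, p = 0.00216 for each measure, the smallest that 6 against 6 allows). Hybridization controls were 6.08-fold brighter on IgG arrays (exact p = 0.00216). Each of them moved with the antibody, and their part in the results was not tested.

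**Figure D1:**
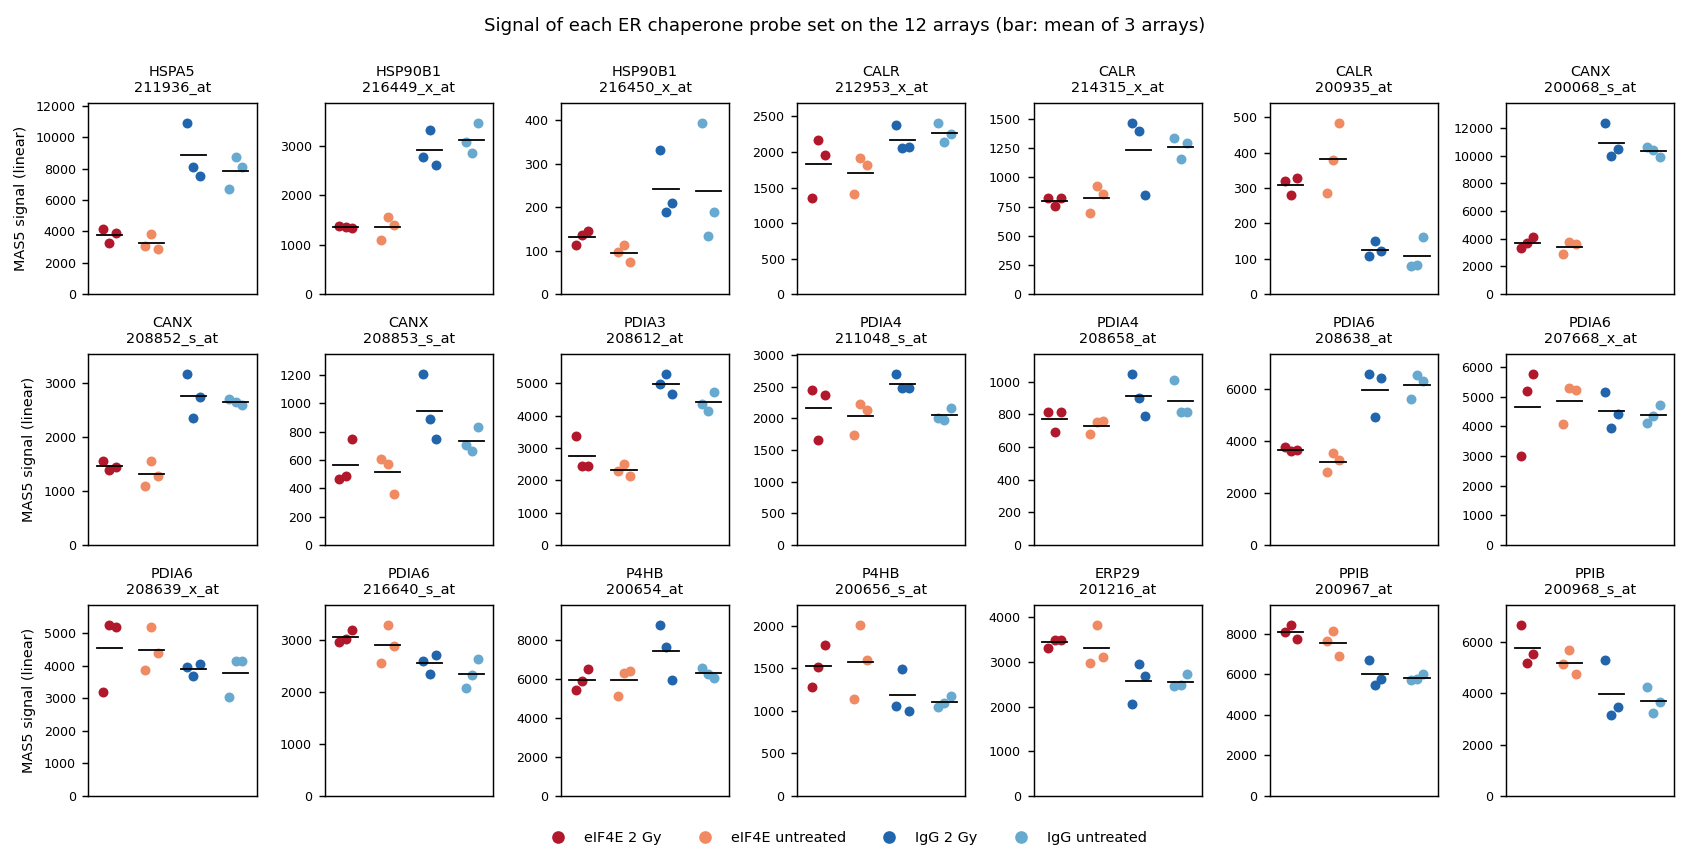
Signal (MAS5, linear, arbitrary units) of the 21 ER chaperone probe sets on each of the 12 arrays, 3 points a group, with the mean of each group as a bar. HSPA5 lies between 2884 and 4125 on eIF4E arrays and between 6678 and 10875 on IgG arrays, whereas CALR 200935_at lies between 281 and 483 on eIF4E arrays and between 78.7 and 161 on IgG arrays.

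Setting eIF4E against IgG compares a messenger's relative share of the signal in eIF4E and in IgG precipitates. Because signals are scaled within each array, it does not show whether a messenger was recovered above the IgG background. The general chaperones and the lectin CANX were relatively lower with eIF4E, PPIB and ERP29 were modestly higher, and CALR and PDIA6 went both ways by probe set. Averaged over both treatments, 6 of the 21 probe sets were higher with eIF4E (28.6%) and 10 were lower (47.6%) at an adjusted p of 0.05 (limma, Benjamini-Hochberg over all probe sets tested). Of all probe sets tested, 29.7% were higher and 36.5% lower. The median difference of the members was -0.24 on the log2 scale, against -0.08 for all probe sets. In 9 members (42.9%) the 6 eIF4E arrays did not overlap the 6 IgG arrays, against 45.6% of all probe sets. By gene, all probe sets of HSPA5, HSP90B1, CANX and PDIA3 were lower, all of ERP29 and PPIB were higher, CALR and PDIA6 had calls in both directions, 1 of the 2 P4HB probe sets was higher, and neither of PDIA4 passed.

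HSPA5, which binds unfolded chains and keeps the stress sensors inactive, gave signals of 4125, 3274 and 3875 with eIF4E in irradiated cells and 3070, 3814 and 2884 with eIF4E in untreated cells (replicates 1 to 3). With IgG the signals were 10875, 8121 and 7511 in irradiated and 6678, 8759 and 8079 in untreated cells. Every eIF4E array lay below every IgG array, whatever the treatment. The difference was -1.24 ± 0.12 (log2 difference with its SE over 6 and 6 arrays, limma adjusted p = 8.96e-08), a 2.37-fold lower geometric mean with eIF4E, and 8.08% of all tested probe sets lay lower still.

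HSP90B1, which finishes the folding of integrins and Toll-like receptors, was lower with eIF4E in both its probe sets. The brighter, 216449_x_at, gave 1387, 1366 and 1337 in irradiated and 1093, 1567 and 1402 in untreated eIF4E precipitates. It gave 2775, 3329 and 2619 in irradiated and 3081, 2847 and 3457 in untreated IgG precipitates. The antibodies did not overlap, and the difference was -1.14 ± 0.11 (adjusted p = 8.65e-08). The dim 216450_x_at, at 74.9 to 145 with eIF4E and 133 to 393 with IgG, differed by -0.93 ± 0.22 (adjusted p = 0.00133) with overlapping arrays. Both are of the type that can hybridise with other transcripts, and HSP90B1 has processed pseudogenes, so the split between copies is uncertain. The other HSP90B1 probe sets, whose annotation also lists the microRNA gene MIR3652 and which the selection therefore left out, gave 2018 to 3009 and 3155 to 4222 with eIF4E, against 6526 to 8384 and 6684 to 9723 with IgG.

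Of the lectins, CANX, the membrane-bound one, was lower in all 3 probe sets. Its brightest, 200068_s_at, gave 3310, 3702 and 4122 in irradiated and 2921, 3760 and 3608 in untreated eIF4E precipitates. In IgG precipitates it gave 12330, 9966 and 10514 in irradiated and 10634, 10381 and 9890 in untreated cells. The antibodies did not overlap, and the difference was -1.57 ± 0.10 (adjusted p = 1.20e-09), a 2.98-fold lower geometric mean with eIF4E, and 3.0% of all tested probe sets lay lower. CANX 208852_s_at was at -0.96 ± 0.11 (adjusted p = 5.90e-07), also without overlap. The dimmest, 208853_s_at, was at -0.63 ± 0.16 (adjusted p = 0.00233), with 364 to 746 on eIF4E arrays and 666 to 1206 on IgG arrays.

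CALR, the soluble lectin that also stores calcium, had probe sets that moved in opposite directions. The dim 200935_at gave 321, 281 and 328 in irradiated and 285, 378 and 483 in untreated eIF4E precipitates, against 107, 149 and 121 in irradiated and 78.7, 82.7 and 161 in untreated IgG precipitates. All eIF4E arrays lay above all IgG arrays, by 1.46 ± 0.18 (adjusted p = 1.56e-06), a 3.02-fold higher geometric mean and the highest value among the members. The brighter probe sets, both of the type that can hybridise with other transcripts, were lower. CALR 214315_x_at gave 695 to 925 with eIF4E and 851 to 1462 with IgG, at -0.60 ± 0.13 (adjusted p = 7.35e-04). CALR 212953_x_at gave 1352 to 2168 and 2056 to 2403, at -0.34 ± 0.12 (adjusted p = 0.0202). That last call was lost without replicate 1 of irradiated eIF4E (-0.24, adjusted p = 0.0608) or of untreated eIF4E (-0.28, adjusted p = 0.0639), after median centring (-0.25, adjusted p = 0.0806) and with array weights (-0.24, adjusted p = 0.0627). Without replicate 1 of all groups it was at -0.12 (adjusted p = 0.237).

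**Figure D2:**
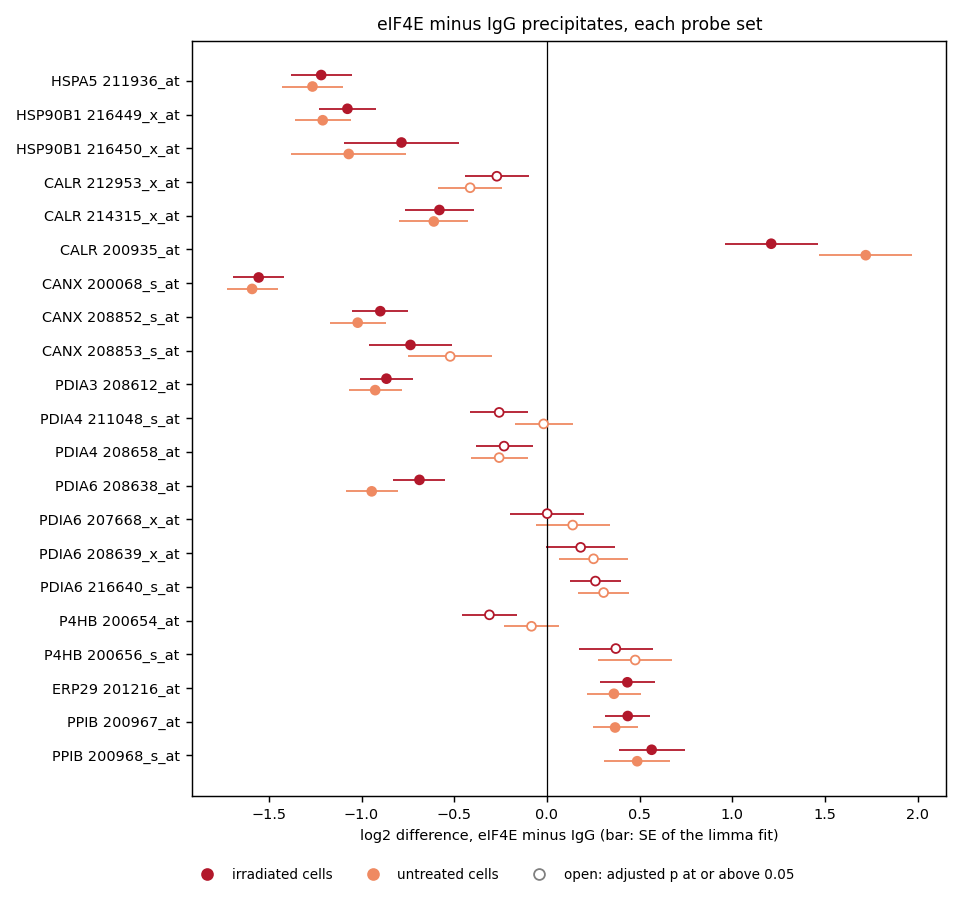
Log2 difference of eIF4E minus IgG precipitates for each ER chaperone probe set, in irradiated and in untreated cells (limma estimate with its SE, filled where the adjusted p was under 0.05). CANX 200068_s_at has the lowest values (-1.55 and -1.59) and CALR 200935_at the highest (1.21 and 1.72), and each pair of points lies on the same side of 0.

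Among the disulfide isomerases, PDIA3, which works on glycoproteins held by the lectins, was lower with eIF4E. Its signals were 3367, 2438 and 2455 in irradiated and 2300, 2506 and 2146 in untreated eIF4E precipitates, against 4989, 5278 and 4669 in irradiated and 4361, 4152 and 4734 in untreated IgG precipitates. No eIF4E array reached the lowest IgG array, and the difference was -0.90 ± 0.10 (adjusted p = 6.88e-07). A processed PDIA3 pseudogene exists, and whether it adds to this value was not tested. The PDIA3 probe set, 208612_at, is not of the type flagged for HSP90B1.

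PDIA6, an isomerase that binds HSPA5, was split. Its brightest probe set, 208638_at, gave 3782, 3605 and 3646 in irradiated and 2798, 3530 and 3260 in untreated eIF4E precipitates, against 6576, 4934 and 6432 in irradiated and 5612, 6542 and 6308 in untreated IgG precipitates. It was lower without overlap (-0.82 ± 0.10, adjusted p = 1.65e-06). PDIA6 216640_s_at gave 2556 to 3282 with eIF4E and 2085 to 2718 with IgG and was higher by 0.28 ± 0.10 (adjusted p = 0.0162), a call lost without replicate 2 of untreated eIF4E (0.24, adjusted p = 0.0525). The remaining probe sets, 207668_x_at and 208639_x_at, were at 0.07 ± 0.14 and 0.22 ± 0.13 (adjusted p = 0.681 and 0.161). They are of the type that can hybridise with other transcripts. On both of them replicate 1 of irradiated eIF4E was the lowest eIF4E array, at 3007 and 3179. Without it 208639_x_at passed (0.33, adjusted p = 0.0166), and without replicate 1 of all groups both did (0.30 and 0.31, adjusted p = 0.00611 and 0.00550).

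P4HB, the founding isomerase and a subunit of prolyl 4-hydroxylase, gave 5135 to 6512 with eIF4E and 5935 to 8760 with IgG on its brighter probe set, 200654_at. That was a difference of -0.20 ± 0.11 (adjusted p = 0.112), which passed without replicate 3 of irradiated IgG (-0.27, adjusted p = 0.0218) and with quantile-normalized signals (-0.25, adjusted p = 0.0373). P4HB 200656_s_at gave 1134 to 2003 and 993 to 1495 and was higher by 0.42 ± 0.14 (adjusted p = 0.0148), a call lost without replicate 2 of untreated eIF4E (0.33, adjusted p = 0.0509). The probe sets of PDIA4, a larger isomerase with additional thioredoxin domains, were at -0.24 ± 0.11 and -0.14 ± 0.11 (adjusted p = 0.0572 and 0.284). PDIA4 211048_s_at gave 1662 to 2457 with eIF4E and 1979 to 2698 with IgG. For PDIA4 208658_at, eIF4E arrays lay at 676 to 814 and IgG arrays at 789 to 1044, and it passed without replicate 3 of irradiated IgG (-0.29, adjusted p = 0.0287) and with the filter at the 60th percentile (adjusted p = 0.0486).

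ERP29, an isomerase-like protein that lacks the usual active site, was higher with eIF4E. It gave 3326, 3497 and 3500 in irradiated and 2983, 3826 and 3124 in untreated eIF4E precipitates, against 2067, 2957 and 2690 in irradiated and 2462, 2481 and 2743 in untreated IgG precipitates. The arrays did not overlap, though the lowest eIF4E array and the highest IgG array were only 2983 and 2957 (0.40 ± 0.10, adjusted p = 0.00301). PPIB, the ER cyclophilin that turns proline bonds of collagen, was also higher. Its brighter probe set, 200967_at, gave 8089, 8421 and 7755 in irradiated and 7635, 8124 and 6885 in untreated eIF4E precipitates, against 6715, 5494 and 5776 in irradiated and 5704, 5775 and 6024 in untreated IgG precipitates. It rose by 0.40 ± 0.09 without overlap (adjusted p = 5.78e-04). PPIB 200968_s_at rose by 0.53 ± 0.13 (adjusted p = 0.00145), and 1 IgG array, replicate 1 of irradiated cells at 5295, lay among the eIF4E arrays of 4740 to 6645.

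Whether probe sets of 1 gene moved unequally was tested as the difference of each tested probe set from the brightest tested one of its gene. There were 3675 such pairs. For HSP90B1 this left out the brighter probe sets whose annotation also lists MIR3652. Of the 11 pairs of member probe sets, in 7 genes, 7 differed between the antibodies, and 54.2% of all pairs did. The 7 pairs belonged to CALR, CANX, P4HB and PDIA6. CALR 200935_at stood 1.81 ± 0.21 higher with eIF4E relative to 212953_x_at (log2 difference with its SE, limma adjusted p = 4.35e-05), the widest gap among the members. The other PDIA6 probe sets stood 0.89, 1.03 and 1.10 higher relative to 208638_at (adjusted p from 6.24e-06 to 4.69e-04). For CANX the dimmer probe sets stood 0.61 and 0.94 higher relative to 200068_s_at (adjusted p = 7.09e-04 and 0.00119), so all 3 were lower with eIF4E but by unequal amounts. P4HB 200656_s_at stood 0.62 ± 0.15 higher relative to 200654_at (adjusted p = 0.00403). The pairs of HSP90B1, PDIA4 and PPIB and the second CALR pair did not pass (adjusted p from 0.198 to 0.497). The place of each probe set along its messenger was not used here, and the actin 3'/5' ratio given above differed between the same arrays.

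**Figure D3:**
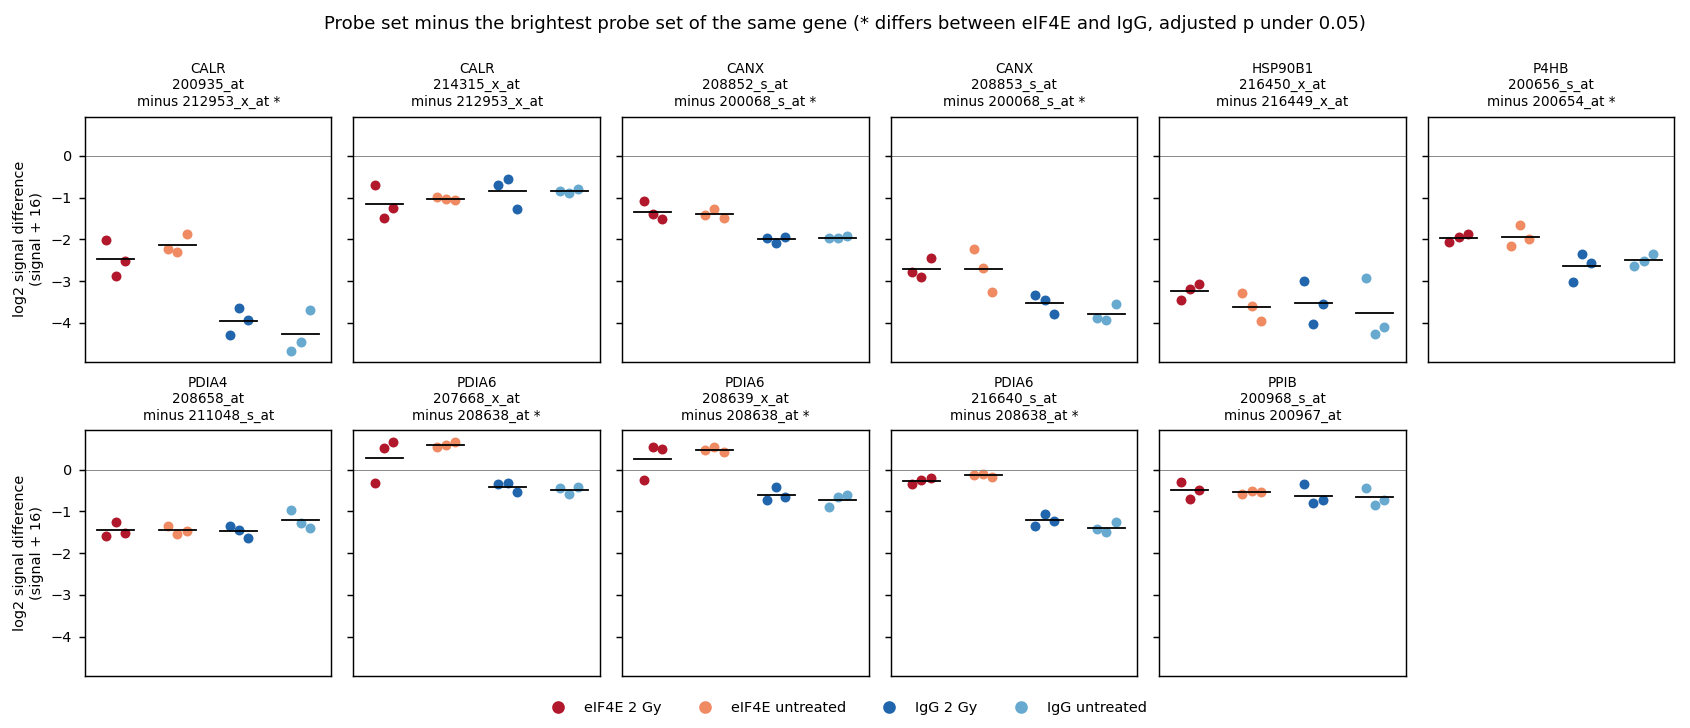
Log2 (signal + 16) of each member probe set minus that of the brightest tested probe set of its gene, on each of the 12 arrays, with group means as bars. A star marks the 7 pairs that differed between eIF4E and IgG at an adjusted p under 0.05, and the widest gap is that of CALR 200935_at, where all eIF4E points lie above all IgG points.

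The antibody difference was then taken within each treatment. The group means compared share no arrays between treatments, but both comparisons used 1 estimate of the spread from all 12 arrays. In irradiated cells 4 probe sets were higher and 9 lower, against 24.3% and 30.3% of all probe sets. In untreated cells 4 were higher and 8 lower, against 24.2% and 29.8%. The 12 probe sets called in untreated cells were called in the same direction in irradiated cells, 4 higher and 8 lower. Of all probe sets, 20.6% were called higher in each treatment and 25.5% lower in each, and 85.4% of the 6177 called in untreated cells were called the same way in irradiated cells. The 12 members were the probe sets of HSPA5, HSP90B1, PDIA3, ERP29 and PPIB, CANX 200068_s_at and 208852_s_at, PDIA6 208638_at, and CALR 200935_at and 214315_x_at. The count of higher calls in untreated cells rested on single arrays: it was 1 without replicate 2 of untreated eIF4E and 2 without replicate 2 of untreated IgG. ERP29 lost its call in 12 of 23 alternatives in untreated cells and in 5 of 23 in irradiated cells, PPIB 200968_s_at in 7 and 3 of 23, and the dim HSP90B1 216450_x_at in 11 of 22 in irradiated cells. All 21 differences had the same sign in both treatments, and the share of all probe sets that did so was not counted. PDIA6 207668_x_at did so only through a value of 0.0013 in irradiated cells. In 1 treatment, 3 that were near 0 and not called changed sign under some settings (PDIA6 207668_x_at, PDIA4 211048_s_at and P4HB 200654_at). CANX 208853_s_at was at -0.74 in irradiated cells (adjusted p = 0.0113) and -0.52 in untreated cells (adjusted p = 0.0615), and the test of the difference between the treatments did not pass (-0.21 ± 0.32, adjusted p = 0.999). Its call was lost in 4 of 23 alternatives in irradiated cells, among them those without replicate 1 of irradiated eIF4E (adjusted p = 0.0526) or of irradiated IgG (adjusted p = 0.0564). It was gained in 6 of 23 in untreated cells, and array weights moved both (adjusted p = 0.127 in irradiated and 0.00854 in untreated cells).

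Irradiation was compared within each antibody. Among eIF4E precipitates limma called 0 of the 21 members and 0.0% of all probe sets, with 153 of 11438 at an unadjusted p under 0.05 and 0 of the members among them. Differences of the members lay between -0.26 and 0.41 (log2, 2 Gy minus untreated), with a median of 0.08, against -0.0009 for all probe sets, and SEs of 0.12 to 0.31. The smallest p belonged to PDIA3 at 0.23 ± 0.14 (adjusted p = 1.0), PDIA6 208638_at at 0.21 ± 0.14 and the dim HSP90B1 216450_x_at at 0.41 ± 0.31. For PDIA6 208638_at the irradiated eIF4E arrays, at 3782, 3605 and 3646, lay above the untreated eIF4E arrays at 2798, 3530 and 3260. It was the only member probe set so separated with eIF4E, and the share over all probe sets was not counted. For PDIA3 the 95% interval ran from -0.07 to 0.53. These values come from the fit without pairing. With the eIF4E arrays alone paired by replicate number, a fit added after seeing the data, the same differences had SEs of 0.12, 0.10 and 0.19, their 95% intervals still held 0, and 0 members were called (limma adjusted p = 0.689, 0.680 and 0.680).

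Among IgG precipitates, which show background RNA and not binding, again 0 members and 0.0% of all probe sets were called, with 848 of all and 0 of the members at an unadjusted p under 0.05. The members lay between -0.11 and 0.34. PDIA4 211048_s_at had the smallest p, at 0.32 ± 0.16 (adjusted p = 0.674, 95% interval -0.01 to 0.65). Its irradiated IgG arrays, at 2698, 2483 and 2474, lay above the untreated IgG arrays at 2000, 1979 and 2164. It was the only member probe set so separated with IgG. How many of all probe sets separate irradiated from untreated arrays in this way was not counted in either antibody. Neither separation is therefore read as an effect of irradiation. CANX 208853_s_at was at 0.34 ± 0.23 and P4HB 200654_at at 0.23 ± 0.15 (adjusted p = 0.728 for each).

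The difference of the irradiation effects, eIF4E minus IgG, was called in 0 members and 0.0% of all probe sets (limma, 403 of all and 0 of the members at an unadjusted p under 0.05). CALR 200935_at was lowest at -0.51 ± 0.35, with a 95% interval from -1.26 to 0.24. PDIA6 208638_at was at 0.26 ± 0.20 and PDIA4 211048_s_at at -0.24 ± 0.22 (adjusted p = 0.999 for each). With eIF4E the members' 95% intervals for 2 Gy minus untreated reached down to -0.79 for CALR 200935_at and up to 1.06 for HSP90B1 216450_x_at, both dim probe sets with wide errors. These bounds are from the fit without pairing. With the eIF4E arrays alone paired they were -0.60 and 0.84. The difference of the effects was not fitted with only the eIF4E groups paired.

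**Figure D4:**
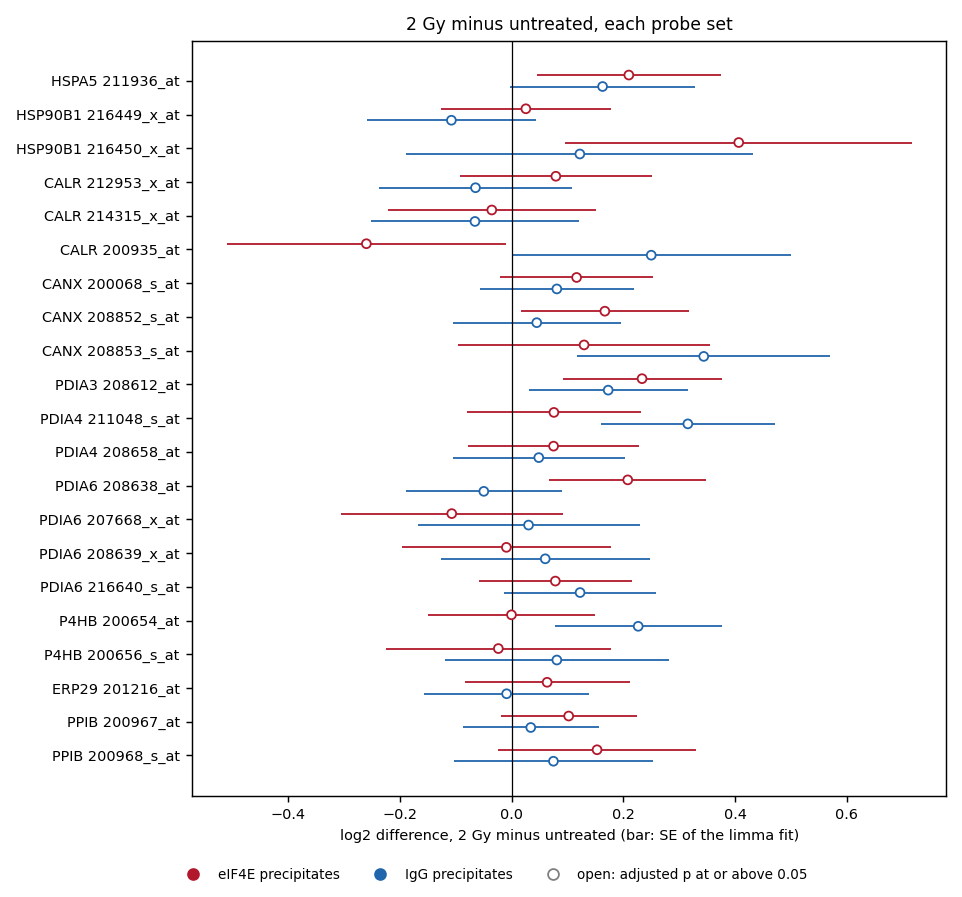
Log2 difference of 2 Gy minus untreated for each ER chaperone probe set, among eIF4E and among IgG precipitates (limma estimate with its SE, fit without pairing). All points are open, since 0 of 21 passed in either antibody, and they lie between -0.26 and 0.41 for eIF4E and between -0.11 and 0.34 for IgG.

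The rest of the folding pathway was read from 3 lists of genes other than the members, each gene by its brightest probe set. On that basis 30.6% of all 7763 genes tested were higher and 36.6% lower with eIF4E, with a median of -0.07. The member median of -0.24 given above is over probe sets and not genes. By brightest tested probe set, CANX was at -1.57, HSPA5 at -1.24, HSP90B1 at -1.14, PDIA3 at -0.90 and PDIA6 at -0.82. CALR was at -0.34, P4HB at -0.20 and PDIA4 at -0.14, and ERP29 and PPIB were at 0.40 each. Of these, P4HB and PDIA4 were not called. Of 24 other ER folding factors tested, 7 were higher, 4 lower and 13 not called (median 0.07). Highest were the prolyl isomerases FKBP11 at 1.15 ± 0.36 (adjusted p = 0.00962, overlapping arrays) and FKBP2 at 0.79 ± 0.11, with the HSPA5 co-factor SDF2L1 at 1.09 ± 0.18. SDF2L1 averaged 889 ± 103 and 941 ± 17.3 in irradiated and untreated eIF4E precipitates, against 476 ± 3.41 and 405 ± 181 in irradiated and untreated IgG precipitates (SD, n = 3 each). Lowest were ERO1A, which reoxidises P4HB, at -0.74 ± 0.13, and the HSPA5 partners DNAJC3 at -0.56 ± 0.14 and DNAJC1 at -0.42 ± 0.13. DNAJC1 lost its call after quantile normalization (-0.28, adjusted p = 0.0764).

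In glycan quality control and ER-associated degradation, 10 of 23 tested genes were higher, 9 lower and 4 not called (median 0.13). SEL1L, the adaptor of the ligase that exports misfolded proteins, had the lowest value at -1.78 ± 0.15 (adjusted p = 2.43e-08), averaging 243 ± 38.8 and 229 ± 38.2 in irradiated and untreated eIF4E precipitates and 869 ± 267 and 841 ± 118 in irradiated and untreated IgG precipitates (SD, n = 3 each). FAF2 and UBXN4, which bring the p97 ATPase to the membrane, were at -1.49 ± 0.11 and -1.49 ± 0.10 (adjusted p = 6.50e-09 and 2.05e-09). EDEM2, which trims mannose from misfolded glycoproteins, was higher by 1.09 ± 0.12, and DERL2 and AUP1, of the export machinery, by 0.93 ± 0.11 and 0.92 ± 0.13 (adjusted p from 6.93e-07 to 7.12e-06). EDEM1 and EDEM3 of the same list went the other way, at -1.18 ± 0.11 and -1.13 ± 0.25 (adjusted p = 5.47e-08 and 6.90e-04).

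Among 18 tested sensors and factors of the unfolded protein response, 6 were higher, 5 lower and 7 not called (median 0.03). The ER membrane factor CREB3L2 was lowest at -1.92 ± 0.15 (adjusted p = 9.31e-09), averaging 996 ± 211 and 964 ± 182 in irradiated and untreated eIF4E precipitates and 3485 ± 649 and 4076 ± 921 in irradiated and untreated IgG precipitates (SD, n = 3 each). EIF2AK3, the sensor kinase PERK, was at -1.01 ± 0.18 and NFYA, a subunit of the factor that binds CCAAT, at -0.75 ± 0.10 (adjusted p = 9.89e-05 and 6.80e-06). Of the other NF-Y subunits, NFYC was higher at 0.50 ± 0.14 and NFYB was not called at -0.30 ± 0.17 (adjusted p = 0.00561 and 0.117). ATF6 was lower at -0.53 ± 0.19 and XBP1 higher at 0.30 ± 0.13 (adjusted p = 0.0189 and 0.0440). Highest were DDIT3 (CHOP) at 1.36 ± 0.16, CREB3 at 1.21 ± 0.11 and PPP1R15A, which reverses eIF2 phosphorylation, at 1.00 ± 0.15 (adjusted p = 1.21e-06, 5.97e-08 and 1.95e-05). Irradiation called 0 genes of these 3 lists in either antibody (smallest adjusted p = 0.544).

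**Figure D5:**
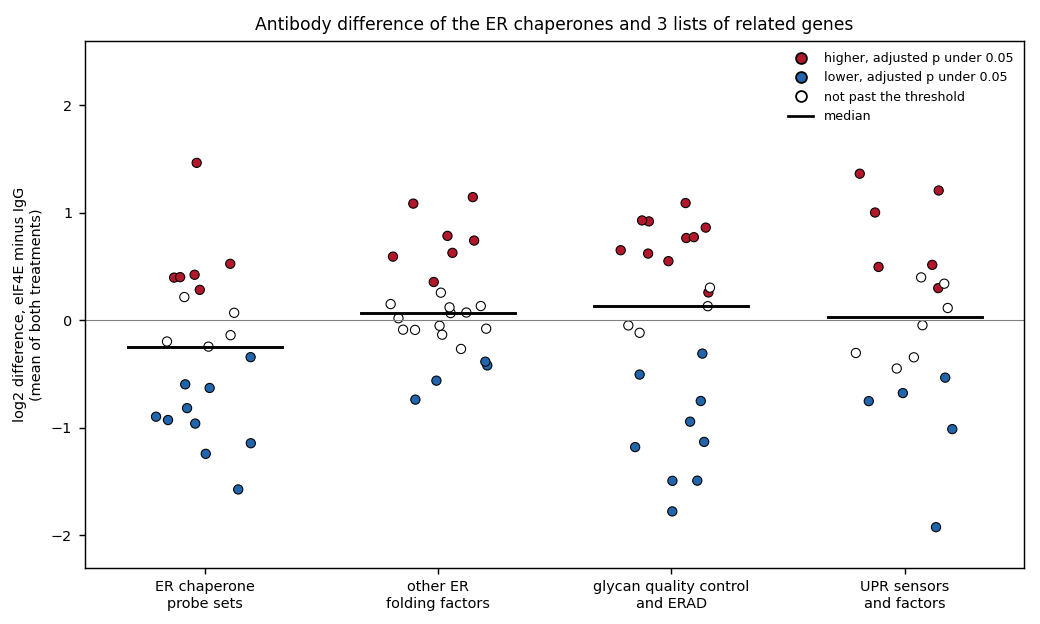
Log2 difference of eIF4E minus IgG, averaged over both treatments, for the 21 ER chaperone probe sets and for the genes of 3 related lists (24, 23 and 18 genes, brightest probe set each). Points are coloured where the adjusted p was under 0.05, and the bars are medians of -0.24, 0.07, 0.13 and 0.03. The first median is over probe sets, with several for some genes, and the others are over genes.

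Over the 12 arrays the profile of HSPA5 was most like those of NRP1, a neuropilin (210510_s_at, Pearson r = 0.989), LARS2, the mitochondrial leucyl-tRNA synthetase (34764_at, r = 0.989), and UBE4B, a ubiquitin ligase (202317_s_at, r = 0.987). Within the members r with HSPA5 ran from 0.970 for CANX 208852_s_at to -0.88 for CALR 200935_at. These values are descriptions over 12 arrays that share the split by antibody.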

How the data were processed

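RNA precipitated with eIF4E or IgG was hybridised to 12 Affymetrix arrays, 1 per precipitate, grouped by their titles. The authors deposited 1 linear intensity per probe set and array, made with MAS5 per the submitters' processing notes (version not stated there). Every array had a trimmed mean of 500.2 when 2% was left out at each end, so values are relative within an array, and the number of arrays limits their precision. Signals were used as deposited. Of 22277 probe sets, 62 were controls, 19064 had 1 gene in the platform annotation, 1043 several and 2108 none. Symbols were updated through gene identifiers to RefSeq of GRCh38.p14, from which promoters were also taken, and no coordinates are given for probe sets. Probe sets with 1 gene and a mean log2 signal at or above the 40th percentile (a signal of 36.9) were tested.

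The model, limma 3.58.1 under R 4.3.3, took log2(signal + 16) and estimated the 4 groups jointly from the 12 arrays (lmFit, then eBayes with its trend option), and p-values were adjusted by Benjamini-Hochberg. This scale understates changes of dim probe sets. Errors are SEs of the fit unless given as SD. Control measures were compared by exact permutation (scipy 1.17.1), figures were drawn with matplotlib 3.10.9, and the fit was tested on simulated data. Every member was named. Of each related list up to 3 genes at either end past the threshold were named, and in each irradiation comparison the 3 member probe sets with the smallest p. Outside that rule, EDEM1 and EDEM3 were named beside EDEM2, and NFYB, NFYC, ATF6 and XBP1 beside NFYA. Members and lists were chosen with earlier results of these data known. Deviations of same-numbered irradiated and untreated eIF4E arrays from their group means correlated at 0.315, 0.180 and 0.123, so a fit that pairs these 2 groups was added. The printed values are those of the fit without the pairing, and the paired errors stand beside the irradiation result. The labels name no shared culture, and in every other pair of groups at least 1 number was under 0.1. Replicate 1 was often higher in those pairs. It gave 0.251 and 0.252 for irradiated eIF4E with irradiated and untreated IgG. For untreated eIF4E with irradiated and untreated IgG it gave 0.090 and 0.224, and for the IgG groups 0.203. The cause was not tested. Scan dates were not used here.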

Additional observations from a re-analysis of the deposited data

How the results depend on the processing

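Alternatives covered the scale (pseudocounts of 1 and 64, centring on the median, quantile normalization), the filter (none, or the 60th percentile), the model (array weights, no variance trend, a replicate block, a fit of the compared groups alone) and the arrays (each left out in turn, or replicate 1 of all groups). Over both treatments the 6 higher and 10 lower member calls stayed at 4 to 7 and 9 to 12 when 1 array was left out (all probe sets called: 7570, or 7177 to 7537). In irradiated cells the members were 3 to 4 higher and 6 to 9 lower (all: 6237, or 5427 to 6386). In untreated cells they were 1 to 5 higher and 7 to 10 lower (all: 6177, or 5369 to 6521), and the 4 higher calls became 2 with no filter, with quantile normalization and with no variance trend, 6 with centring and with array weights, and 4 or 5 in the other settings apart from single arrays left out. Quantile normalization and centring moved the median of all probe sets in untreated cells by 0.10 and 0.11, and in the other comparisons by less than 0.1. Of all pairs of probe sets 1992 were called, 1277 with the filter at the 60th percentile (fewer pairs tested) and 1816 to 1955 without 1 array, and the member count was 7 without 1 array and 8 without replicate 1 of all groups. Irradiation calls among all probe sets, none of them in members, appeared with array weights in eIF4E (9) and in IgG with a pseudocount of 1 (2), with no variance trend (2), without replicate 1 of all groups (1) and without 1 array (0 to 3). The difference of irradiation effects gave 0 to 1 without 1 array. The cause was not tested.

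Values near 0 that were not called changed sign. PDIA6 207668_x_at (0.07) became -0.029 after quantile normalization and -0.020 to 0.21 without 1 array. In irradiated cells (0.0013) it became -0.10 after quantile normalization and -0.18 to 0.29 without 1 array. In untreated cells PDIA4 211048_s_at (-0.018) became 0.095 with centring, 0.023 with array weights, 0.073 without replicate 1 of all groups and -0.088 to 0.089 without 1 array. P4HB 200654_at (-0.083) became 0.030 with centring, 0.051 without replicate 1 of all groups and -0.14 to 0.020 without 1 array. With the replicate block, PDIA4 208658_at over both treatments (adjusted p = 0.0484) and, in untreated cells, CALR 212953_x_at and P4HB 200656_s_at (adjusted p = 0.0399 and 0.0222) passed, and no other member call changed.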
